A study of Mus musculus with 4 samples.

Results

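The genes described here are 7 core components of the Hedgehog pathway, Shh, Ptch1, Gli1, Gli2, Gli3, Smo and Hhip, found by symbol among the 56980 genes of the count tables, where each symbol named 1 gene. They were measured by droplet-based 3′ single-cell RNA-seq in 4 libraries of dorsal skin, 2 Ctrl and 2 TKO, from cells that had been sorted as Epcam and α6 integrin positive. Each library came from 1 embryo and all 4 embryos came from 1 litter. The labels give E16.5, and the study's list of litters gives a day 1 earlier for this litter. Ctrl embryos carried floxed Suv39h1, floxed Setdb1 and a constitutive deletion of Suv39h2 without the Cre transgene. TKO embryos carried the same 3 alleles together with K14CreERT2, a tamoxifen-dependent Cre that the keratin 14 promoter drives in basal keratinocytes and their descendants. Tamoxifen was given to both groups, so that the Suv39h2 deletion and the drug were shared and only Cre differed. The 3 genes encode histone methyltransferases for H3K9me3, which marks silent chromatin. Recombination was mosaic according to the study, and the dermal cells that remained after the sort lie outside the reach of the K14 promoter. The comparison asked whether the pathway genes changed with the loss of H3K9me3 in the epithelium.

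Hedgehog signalling starts when a secreted ligand, in skin Sonic hedgehog, binds the receptor Patched1, which otherwise holds Smoothened inactive. Freed Smoothened acts at the primary cilium and turns the Gli2 and Gli3 proteins from repressors towards activators, and these switch on target genes that include Gli1, Ptch1 and Hhip. In embryonic skin Shh made by the epithelium of the forming hair follicle drives the downgrowth of the follicle and signals to the dermal condensate beneath it, and the products of Ptch1 and Hhip bind the ligand and limit its range.

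The libraries held 3804 to 5785 barcodes and 70749496 to 89655247 UMIs (unique molecular identifiers, each standing for 1 captured RNA molecule). After removal of cells with under 2000 detected genes, cells with over 10% mitochondrial UMIs and 260 likely doublets, 10961 cells remained. Between 0 and 4 barcodes of the cells kept were shared by any pair of libraries. Cells were clustered with the pathway genes left out, and classes carry the ending "-like" because they were named here from marker genes. Hair follicle-like cells numbered 454, 626, 219 and 344, basal-like cells 1416, 1627, 1025 and 936, and fibroblast-like cells 106, 105, 192 and 130, in each case in the order Ctrl replicate 1, Ctrl replicate 2, TKO replicate 1, TKO replicate 2 that is kept throughout. Hair follicle-like cells were divided further into hair placode-like, hair germ-like and hair peg-like cells, named after the successive stages of follicle growth, and 2 subclusters of 287 cells led by Stfa3 and Zfp750 stayed unnamed. Of the placode-like and germ-like subclusters, only that led by Dkk4 and Fgf20 had markers of its list among its leading genes. The placode-like subcluster led by Kcnh7 held 72 and 97 Ctrl and 57 and 49 TKO cells. Its leading genes Kcnh7, Slc1a3 and Macrod2os1 also led a basal-like cluster. How far placode-like values include basal cells was not tested. Levels are given as CPM, the UMIs of a gene scaled to the total UMIs of all cells of the class in that library (counts per 10 to the power of 6). Genotypes were compared with edgeR's quasi-likelihood test on the summed UMIs of each class, with Benjamini-Hochberg adjustment over all genes tested in that class, and a gene was called at an adjusted p under 0.05. With 2 libraries per group the tests measure the spread between embryos of 1 litter. The study states that its sequencing experiments used at least 1 male and 1 female sample in each group. Sex was not a term of the fits. Of the 3 targeted genes, Setdb1 fell by 0.64 on the log2 scale in keratinocytes (SE 0.125, adjusted p = 0.0478), a call that was lost without any 1 of the 4 libraries (adjusted p from 0.0649 to 0.258) and without the cluster led by Krt7 and Npffr1 described next (0.0648), while Suv39h1 differed by -0.17 (adjusted p = 0.472) and Suv39h2 by 0.29 (adjusted p = 0.399). A 3′ tag does not check a deletion that lies elsewhere in the gene. Of the basal-like cells, 7 and 5 in Ctrl and 199 and 150 in TKO came from a cluster of the first clustering led by Krt7 and Npffr1, which made up 19.4% and 16.0% of the class in TKO and under 1% in Ctrl. The summed level of the 9 basal markers in basal-like cells was 18017 and 20708 CPM in Ctrl and 13689 and 17530 CPM in TKO, and that of the 7 fibroblast markers was 1300 and 1436 CPM against 1038 and 908 CPM. Hair follicle markers there also fell, from 1366 and 1436 CPM to 1243 and 1185 CPM. Other sums rose: dermal condensate markers from 31.9 and 34.1 to 57.1 and 50.5 CPM, immune markers from 3.27 and 5.66 to 8.10 and 9.32 CPM, and endothelial markers from 2.18 and 1.93 to 4.05 and 2.60 CPM. Those of melanocytes overlapped. The basal-like results below are also given without that cluster. Median UMIs per hair follicle-like cell were 20823 and 16260 in Ctrl and 26100 and 24125 in TKO, so shares of cells with a UMI are given after every cell was thinned to 5000 UMIs. Marker sums of other cell types differed between the genotypes in hair follicle-like cells too. The 9 immune markers, of which 7 to 8 had a UMI in each library with Cd3e at 0 in 3 libraries, summed to 14.2 and 16.8 CPM in Ctrl and 35.7 and 46.1 CPM in TKO. The 6 melanocyte markers, of which 3 to 5 had a UMI with Sox10 at 0 in all 4 libraries, summed to 28.6 and 40.2 CPM against 8.33 and 14.3 CPM. The dermal condensate markers, of which 3 to 7 of 7 had a UMI with Fgf10 at 0 in 3 libraries, summed to 1025 and 1112 CPM against 814 and 865 CPM. Fibroblast-like cells themselves had 464 to 1440 CPM of these markers and basal-like cells 31.9 to 57.1 CPM. Whether this sum in hair follicle-like cells came from dermal cells or from the follicle itself was not tested. The 9 basal markers, all with UMIs, summed to 6897 and 6841 CPM against 5536 and 6309 CPM, while the sums of the 7 fibroblast and the 15 hair follicle markers overlapped. Over all keratinocytes the keratins summed to 25954 and 23126 CPM in Ctrl and 13866 and 20763 CPM in TKO, and dermal condensate markers to 204 and 271 against 163 and 191 CPM. Immune markers had 6.08 and 7.87 against 11.7 and 16.2 CPM there, and endothelial markers 1.82 and 2.06 against 4.87 and 5.55 CPM. The fibroblast, basal, hair follicle and melanocyte sums overlapped in keratinocytes. The part of all these sums in the results below was not tested.

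Of the 7 genes, Hhip alone passed the test in hair follicle-like cells, where it fell, and Smo alone passed it in basal-like cells, where it also fell. All 7 genes were tested in hair follicle-like cells, where 6.34% of all 15263 genes tested were called in either direction and 3.15% were lower in TKO. In basal-like cells 6 of the 7 genes passed the expression filter, against a background of 14.2% of 17469 genes called, and 5.16% called lower. The median log2 change of the genes tested was -0.25 in hair follicle-like cells and -0.50 in basal-like cells, and over all genes it was -0.01 and -0.02. No gene of the 7 was called in hair placode-like, hair germ-like, hair peg-like, differentiating-like or fibroblast-like cells, where 3.17%, 3.26%, 3.88%, 2.2% and 0.0344% of all genes were called. In these 5 classes the numbers of the 7 genes with an unadjusted p under 0.05 were 0, 3, 2, 2 and 2 respectively, beside 2247 of 11911, 1944 of 12008, 2414 of 11862, 2838 of 14776 and 500 of 11628 of all genes tested. DESeq2 called Gli2 in differentiating-like cells and none of the 7 genes in the other 4 classes.

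**Figure D1:**
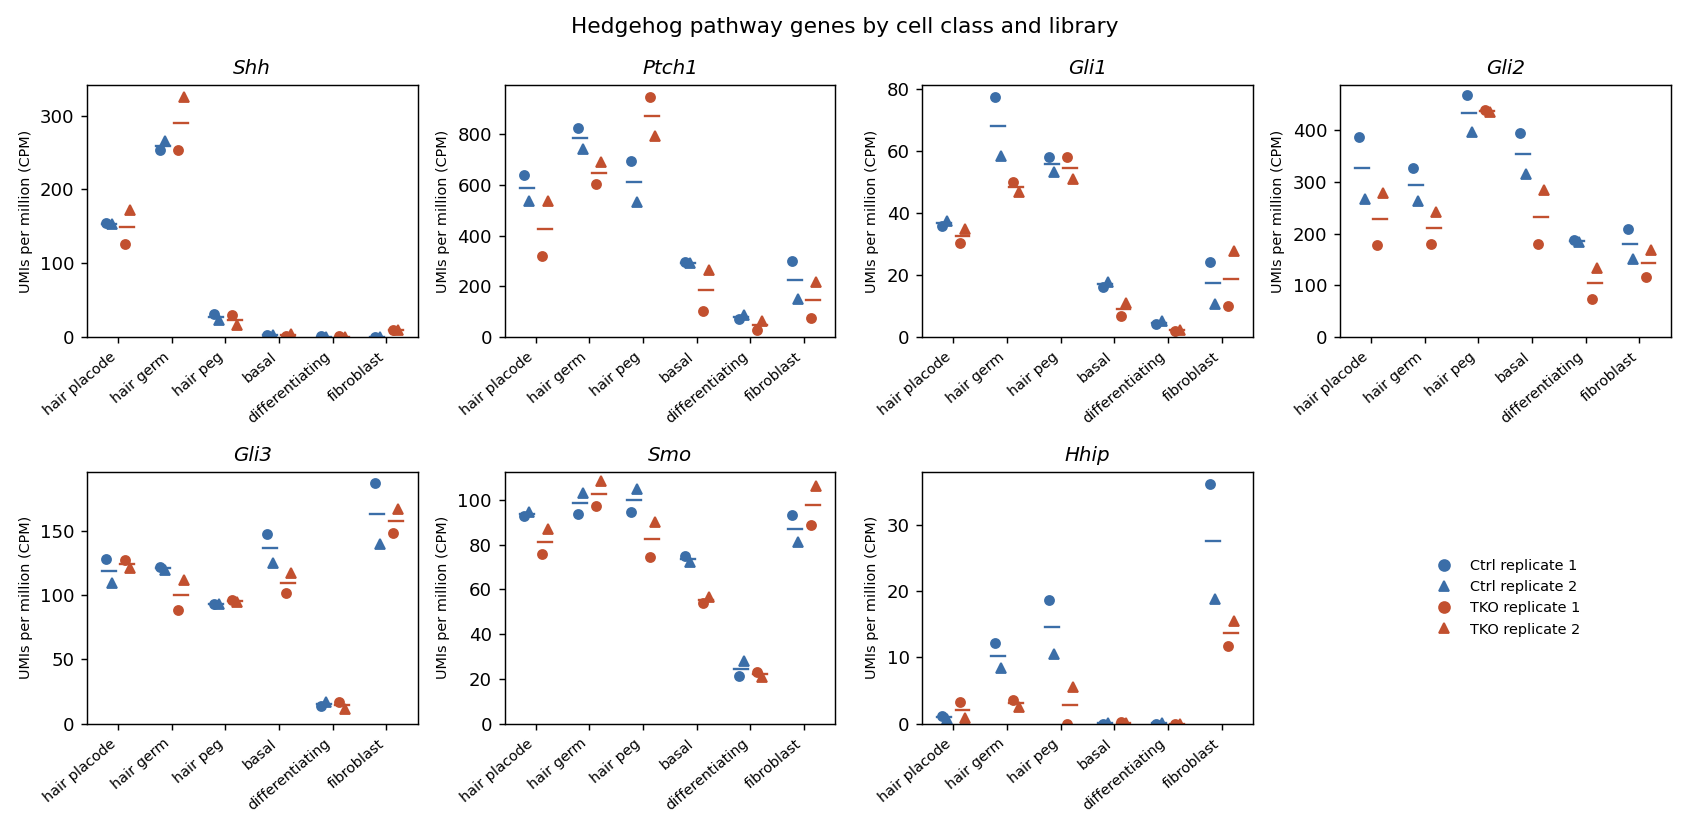
Level of each gene in CPM (vertical axis, starting at 0) in 6 named cell classes (horizontal axis, written without the ending "-like"). Points are single libraries, circles replicate 1 and triangles replicate 2, blue for Ctrl and red for TKO, and the short lines are the means of the 2 libraries of a genotype. Shh is concentrated in hair germ-like and hair placode-like cells at similar levels in both genotypes, and Ptch1 and Gli2 in TKO replicate 1 lie below TKO replicate 2 in basal-like cells.

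Shh, the ligand, was found mostly in the follicle. In Ctrl its level was highest in hair germ-like cells (259 ± 8.39 CPM, SD, n = 2), next in hair placode-like cells (154 ± 1.38) and then in hair peg-like cells (27.6 ± 5.65), and the ranges of these 3 subgroups did not overlap. It was 2.89 ± 0.457 CPM in basal-like cells and under 1 CPM in differentiating-like cells. Merkel-like cells had 11.4 and 83.3 CPM in the Ctrl libraries, the second value from 37 UMIs in 4 cells. Within the germ-like cells, the subcluster led by Slc40a1 and Chrm3 had 439 and 456 CPM of Shh in Ctrl, and the subcluster led by Lhfp and Gabrg3 had 37.7 and 49.4 CPM. Within the placode-like cells, the subcluster led by Dkk4 and Fgf20 had 212 and 269 CPM and the subcluster led by Kcnh7 had 93.2 and 60.0 CPM. Shh was thus unevenly spread within both subgroups, with 1 subcluster of each above the other in both Ctrl libraries.

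The level of Shh in hair follicle-like cells was 134 and 143 CPM in Ctrl and 126 and 154 CPM in TKO. The TKO libraries lay on either side of both Ctrl libraries, and the log2 change was 0.05 (SE 0.127, adjusted p = 0.868). In hair germ-like cells the values were 253 and 265 CPM in Ctrl and 254 and 325 CPM in TKO (log2 change 0.16, SE 0.148, adjusted p = 0.683). Hair placode-like cells had 155 and 153 CPM in Ctrl and 126 and 172 CPM in TKO (log2 change -0.07, SE 0.174, adjusted p = 0.883), and hair peg-like cells had 31.6 and 23.6 CPM in Ctrl and 29.1 and 16.6 CPM in TKO (log2 change -0.33, SE 0.309, adjusted p = 0.611). In each of the 4 the genotypes overlapped. The change in hair follicle-like cells was -0.20 to -0.19 with a minimum of 1000 genes per cell, a finer clustering or the pathway genes kept in the clustering, and stayed above 0 with doublets kept, a coarser clustering or uncorrected components.

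At 5000 UMIs per cell, a Shh UMI was present in 27.3% (95% Clopper-Pearson limits 23.3 and 31.7) and 30.3% (limits 26.7 and 34.2) of Ctrl hair follicle-like cells and in 30.7% (limits 24.7 and 37.3) and 40.2% (limits 34.9 and 45.6) of TKO cells. The mean share was 28.8 ± 2.13% in Ctrl and 35.5 ± 6.68% in TKO (SD, n = 2 each), a difference of 6.62 percentage points with an exact two-sided permutation p of 0.333, which is the smallest that 2 against 2 libraries allow. Without thinning, the shares were 45.3 ± 0.768% and 59.7 ± 4.36%, in the libraries whose cells also held more UMIs in TKO. In immune-like cells, which should not make Shh and which had a median of 13365 to 18240 UMIs per library, the thinned share was 0 in both Ctrl libraries and TKO replicate 1, which allows up to 4.41%, 3.06% and 1.23% of cells (3 cells of the total), and 0.364% in TKO replicate 2. Without thinning, 2 of 68 and 0 of 99 Ctrl immune-like cells and 1 of 244 and 2 of 281 TKO immune-like cells held a Shh UMI. The intervals cover counting error only.

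Fibroblast-like cells gave 42 and 20 UMIs of Shh in TKO replicates 1 and 2 and none in either Ctrl library. Of these, 41 came from 1 cell of TKO replicate 1 and 18 from 1 cell of TKO replicate 2, and 2 further cells held 1 and 2. The cell with 41 Shh UMIs also held 109 Col1a1, 23 Krt17 and 6 Epcam UMIs, and the cell with 18 held 66 Col1a1, 22 Krt17 and 17 Epcam UMIs, so that collagen and epithelial transcripts occurred in the same barcodes. The test of Shh in fibroblast-like cells had an adjusted p of 0.753, and without those 2 cells the gene no longer passed the expression filter.

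The other 2 ligands were sparse. Indian hedgehog (Ihh) had 2, 6, 4 and 4 UMIs over all keratinocytes. Desert hedgehog (Dhh) gave 3 and 2 UMIs from Ctrl keratinocytes against 43 and 23 from TKO keratinocytes, the TKO UMIs lying in 36 and 20 cells. Dhh passed the expression filter through the TKO libraries alone, so a gene with these counts had to differ. It was called higher in TKO (adjusted p = 0.0276), as were 3.99% of the 20010 genes tested in keratinocytes, and without the cluster led by Krt7 and Npffr1 it no longer passed the filter. The call was lost without Ctrl replicate 1 (adjusted p = 0.138), Ctrl replicate 2 (adjusted p = 0.304) or TKO replicate 1 (adjusted p = 0.0733), and the Dhh gene overlaps Rhebl1 on the same strand, so that its few reads may be shared. The level stayed under 1 CPM in every library.

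Ptch1, the receptor and a target gene, was measured in every class. In Ctrl it had 784 ± 56.5 CPM in hair germ-like cells, 613 ± 114 in hair peg-like and 587 ± 74.4 in hair placode-like cells, 293 ± 1.75 in basal-like cells, 224 ± 108 in fibroblast-like cells and 78.5 ± 10.1 in differentiating-like cells (SD, n = 2). Peg-like and placode-like cells overlapped, as did basal-like and fibroblast-like cells. Hair follicle-like cells had 770 and 686 CPM of Ptch1 in Ctrl and 520 and 679 CPM in TKO (log2 change -0.25, SE 0.153, adjusted p = 0.387). Both TKO libraries lay below both Ctrl libraries, TKO replicate 2 by little.

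The subgroups did not all move one way for Ptch1. Hair germ-like cells had 824 and 744 CPM in Ctrl and 605 and 691 in TKO (log2 change -0.28, SE 0.119, adjusted p = 0.312). Hair placode-like cells had 640 and 535 CPM in Ctrl and 320 and 536 in TKO (log2 change -0.47, SE 0.236, adjusted p = 0.325). Hair peg-like cells had 694 and 533 CPM in Ctrl and 949 and 794 CPM in TKO, so here both TKO libraries lay above both Ctrl libraries (log2 change 0.51, SE 0.156, adjusted p = 0.121). None of the 3 passed the threshold, and the difference between subgroups was not tested. Among the follicle subclusters, the unnamed one led by Stfa3 had the highest Ptch1 in Ctrl, 1108 to 1326 CPM. Its TKO libraries had 536 to 842 CPM. The placode-like subcluster led by Dkk4 had 790 to 922 CPM in Ctrl and 466 to 662 CPM in TKO. That led by Kcnh7 had 331 to 339 CPM in Ctrl and 176 to 336 CPM in TKO. No test was run on single subclusters. An unnamed keratinocyte cluster led by Zfpm2, Pthlh and Krt79 had 198 and 252 CPM in Ctrl and 448 and 772 CPM in TKO, from 21 and 29 TKO cells.

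Basal-like cells had 294 and 292 CPM of Ptch1 in Ctrl and 103 and 265 CPM in TKO (log2 change -0.65, SE 0.395, adjusted p = 0.316). The Ctrl libraries were almost equal and the TKO libraries far apart, and the value rested on TKO replicate 1. Without TKO replicate 1 the log2 change was -0.11 (adjusted p = 0.65), and without TKO replicate 2 it was -1.53 (adjusted p = 7.4e-06). Outside the cluster led by Krt7 and Npffr1 the TKO libraries had 110 and 283 CPM (log2 change -0.55, adjusted p = 0.42). TKO replicate 1 was below TKO replicate 2 for Ptch1 also in hair placode-like, hair germ-like, differentiating-like and fibroblast-like cells, and above it in hair peg-like cells. Keratinocytes as a whole had 293 and 326 CPM in Ctrl and 146 and 280 in TKO (log2 change -0.54, SE 0.316, adjusted p = 0.359). Ptch1 spans chr13:63656142-63721412 on the minus strand (GRCm39), and 2 annotated non-coding genes on the same strand overlap it.

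Smo, which encodes the signal transducer that Ptch1 restrains, had Ctrl levels of 99.8 ± 7.20 CPM in hair peg-like, 98.5 ± 6.69 in hair germ-like, 93.8 ± 1.05 in hair placode-like, 73.4 ± 1.92 in basal-like and 24.5 ± 4.81 CPM in differentiating-like cells (SD, n = 2). Germ-like cells overlapped both peg-like and placode-like cells, and the last 2 did not overlap each other. In basal-like cells it had 74.8 and 72.1 CPM in Ctrl and 53.8 and 56.8 CPM in TKO. The genotypes did not overlap and Smo fell by 0.40 on the log2 scale (SE 0.0999, adjusted p = 0.0435). The call stood close to the threshold: it was lost without Ctrl replicate 1 (adjusted p = 0.22), Ctrl replicate 2 (adjusted p = 0.162) or TKO replicate 1 (adjusted p = 0.125), and in 9 of 13 other alternatives, with log2 changes from -0.48 to -0.34 throughout. With the replicate number as a block the adjusted p was 0.0912, and without the cluster led by Krt7 and Npffr1 the log2 change was -0.41 (adjusted p = 0.0607). Outside that cluster Smo had 74.9 and 72.1 CPM in Ctrl and 52.7 and 57.1 CPM in TKO, so the genotypes did not overlap there either. In hair follicle-like cells Smo had 94.0 and 99.7 CPM in Ctrl and 80.8 and 89.2 CPM in TKO (log2 change -0.16, SE 0.11, adjusted p = 0.452), and the difference between the effects in the 2 classes was 0.29 (adjusted p = 0.107).

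The Gli genes encode the transcription factors at the end of the pathway. Gli1, an activator that is itself induced by signalling and often read as a gauge of it, had Ctrl levels of 68.0 ± 13.5 CPM in hair germ-like, 55.8 ± 3.39 in hair peg-like, 36.7 ± 1.09 in hair placode-like, 16.9 ± 1.27 in basal-like and 4.62 ± 0.708 CPM in differentiating-like cells (SD, n = 2), with no overlap between any neighbours in this order. Fibroblast-like cells, at 24.3 and 10.7 CPM, overlapped the basal-like cells. Gli1 UMIs in basal-like cells numbered 501 and 545 for Ctrl against 239 and 315 for TKO, or 16.1 and 17.8 CPM against 6.91 and 11.1 CPM. The genotypes did not overlap, and the log2 change of -0.91 (SE 0.244) had an adjusted p of 0.0552, just outside the threshold. It passed in 10 of 13 other alternatives, among them DESeq2 (adjusted p = 0.00974) and the fit with the replicate number as a block (adjusted p = 0.0111), and of the fits that left out 1 library only the one without TKO replicate 2 passed (log2 change -1.32, adjusted p = 0.000354). Without the cluster led by Krt7 and Npffr1 the log2 change was -0.89 (adjusted p = 0.0663). The share of basal-like cells with a Gli1 UMI at 5000 UMIs was 8.06 ± 0.983% in Ctrl and 3.72 ± 1.39% in TKO (SD, n = 2; exact permutation p = 0.333), beside 0 and 0.182 ± 0.257% in immune-like cells.

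In hair follicle-like cells Gli1 had 55.4 and 51.1 CPM in Ctrl and 41.8 and 42.2 CPM in TKO, again without overlap (log2 change -0.31, SE 0.114, adjusted p = 0.16). Hair germ-like cells had 77.6 and 58.5 CPM in Ctrl and 50.1 and 46.7 CPM in TKO (log2 change -0.49, SE 0.183, adjusted p = 0.24). Hair placode-like cells had 35.9 and 37.5 CPM in Ctrl and 30.3 and 34.9 CPM in TKO (log2 change -0.19, SE 0.173, adjusted p = 0.611), and hair peg-like cells had 58.2 and 53.4 CPM in Ctrl and 58.2 and 50.8 CPM in TKO. Differentiating-like cells had 4.12 and 5.12 CPM in Ctrl and 2.07 and 2.24 CPM in TKO (log2 change -1.15, SE 0.278, adjusted p = 0.108). Over all keratinocytes the log2 change was -0.71 (SE 0.194, adjusted p = 0.0968).

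Gli2, the main activator downstream of Smo, was widespread, with 433 ± 50.0 CPM in hair peg-like, 355 ± 55.4 in basal-like, 327 ± 84.3 in hair placode-like and 295 ± 44.5 CPM in hair germ-like cells of Ctrl (SD, n = 2), the last 3 overlapping their neighbours. In basal-like cells it had 394 and 316 CPM in Ctrl and 180 and 284 CPM in TKO (log2 change -0.60, SE 0.232, adjusted p = 0.136). The change was -0.29 (adjusted p = 0.275) without TKO replicate 1 and -1.01 (adjusted p = 0.00076) without TKO replicate 2, and -0.49 (adjusted p = 0.242) without the cluster led by Krt7 and Npffr1. Gli2 in hair follicle-like cells had 415 and 328 CPM in Ctrl and 234 and 336 CPM in TKO, which overlapped (log2 change -0.35, SE 0.199, adjusted p = 0.35). Its log2 changes were -0.53 in hair placode-like (adjusted p = 0.295), -0.48 in hair germ-like (adjusted p = 0.238) and -0.90 in differentiating-like cells (adjusted p = 0.188), and hair peg-like cells had 468 and 398 CPM in Ctrl and 439 and 436 CPM in TKO. In the whole keratinocytes it was -0.56 (adjusted p = 0.196).

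Gli3 acts mostly as a repressor. Its Ctrl levels were 163 ± 33.8 CPM in fibroblast-like, 136 ± 15.5 in basal-like, 121 ± 1.88 in hair germ-like, 119 ± 12.8 in hair placode-like and 93.0 ± 0.137 CPM in hair peg-like cells, and 15.4 ± 2.58 CPM in differentiating-like cells (SD, n = 2). Fibroblast-like cells overlapped basal-like cells, and germ-like cells overlapped placode-like cells. In hair follicle-like cells Gli3 had 113 and 107 CPM in Ctrl and 104 and 113 CPM in TKO (log2 change 0.01, SE 0.106, adjusted p = 0.957). In basal-like cells it had 147 and 125 CPM in Ctrl and 102 and 117 CPM in TKO (log2 change -0.31, SE 0.13, adjusted p = 0.165), and without the cluster led by Krt7 and Npffr1 the log2 change was -0.29 (adjusted p = 0.227).

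**Figure D2:**
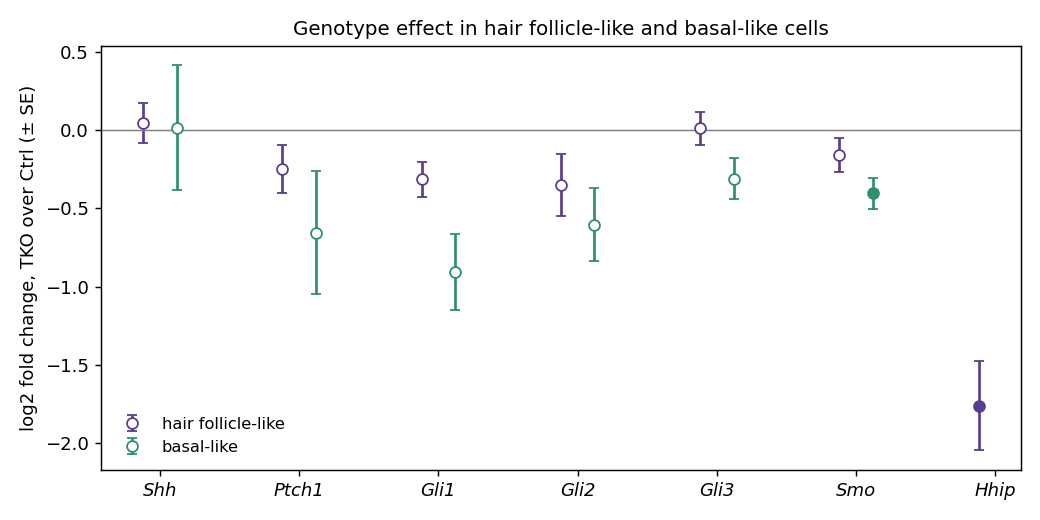
Log2 fold change of TKO over Ctrl (vertical axis, points, with bars of 1 standard error) for each gene (horizontal axis) in hair follicle-like cells (purple) and basal-like cells (green), from edgeR on summed UMIs of 2 libraries per genotype. Filled points have an adjusted p under 0.05 and Hhip was too rare to test in basal-like cells. Hhip stands at -1.76 in hair follicle-like cells, and the points of Ptch1, Gli1, Gli2, Gli3 and Smo lie lower in basal-like than in hair follicle-like cells.

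The effects in the 2 classes were compared directly by an interaction test that kept the library as a block, in which 4.73% of 17868 genes were called. Of the 7 genes Gli3 alone was called, its log2 change being higher in hair follicle-like than in basal-like cells by 0.37 (SE 0.0872, adjusted p = 0.0463). That call was kept in 1 of 10 other alternatives and in none of the 4 fits that left out a library, whose adjusted p ranged from 0.0738 to 0.224 with the same sign, and it was lost without the cluster led by Krt7 and Npffr1 (0.33, adjusted p = 0.0911). The differences for Ptch1 (0.59, adjusted p = 0.219), Gli1 (0.65, adjusted p = 0.11) and Gli2 (0.31, adjusted p = 0.0516) did not pass. Hhip was not called either, and with 10 UMIs in all basal-like cells its difference could not be estimated closely (log2 -6.29 to -1.96 when 1 library was left out). Against fibroblast-like cells, where 0.127% of 15757 genes were called, none of the 7 genes differed in effect from hair follicle-like cells by this test, and 1 of the 7, Shh, had an unadjusted p under 0.05, through the fibroblast-like cells described above.

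Hhip encodes a membrane-bound protein that binds Hedgehog ligands and holds them from Ptch1. It is transcribed from chr8:80692480-80784658 on the minus strand (GRCm39), and 3 annotated non-coding genes on the opposite strand overlap it. Because it had the largest log2 change of the 7 in hair follicle-like cells, the sequence just before its start is shown, from the RefSeq start in build GRCm38.p6 at chr8:80058030-80058258 on the minus strand, without the bases that GENCODE vM39 counts as transcribed. The capitals mark CpG dinucleotides.

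Hhip: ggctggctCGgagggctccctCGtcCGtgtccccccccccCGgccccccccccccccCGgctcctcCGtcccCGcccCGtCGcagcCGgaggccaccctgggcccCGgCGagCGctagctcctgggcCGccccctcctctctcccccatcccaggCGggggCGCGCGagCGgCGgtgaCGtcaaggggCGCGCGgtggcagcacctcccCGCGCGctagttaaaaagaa

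These 229 bases hold 27 CpG dinucleotides, and the median over the same window of 32851 RefSeq promoters was 5. The sequence GACCACCCA, a site known to bind Gli proteins, and its reverse complement were absent from the window and present in 0.219% of all such windows. No match in so short a stretch says nothing about binding elsewhere.

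In Ctrl the level of Hhip was 27.5 ± 12.3 CPM in fibroblast-like cells, 14.6 ± 5.66 in hair peg-like and 10.2 ± 2.67 CPM in hair germ-like cells (SD, n = 2), the last 2 overlapping. It was 0.933 ± 0.347 CPM in hair placode-like cells. In basal-like cells Hhip was counted 0 and 2 times for Ctrl against 7 and 1 for TKO, too few for a test, and differentiating-like cells had 2 UMIs in all. Within the germ-like cells, 35 and 26 of the 41 and 37 Ctrl UMIs lay in the subcluster led by Lhfp, where Shh was low. At 5000 UMIs per cell, germ-like cells without a Shh UMI had 25.9 and 11.5 CPM of Hhip in Ctrl, and those with a Shh UMI had 0 and 1.94 CPM. Peg-like cells had 10.5 and 8.11 CPM without a Shh UMI and 22.2 and 28.6 CPM with one. The latter came from only 9 and 7 cells, with too few Hhip UMIs to give a direction. All of these values rest on few Hhip UMIs and are a description without a test.

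Hhip UMIs in hair follicle-like cells numbered 105 and 86 for Ctrl against 17 and 20 for TKO, in 34 and 47 cells against 11 and 13 cells. A single cell of Ctrl replicate 1 held 24 of its 105 UMIs, and no cell held more than 7 in Ctrl replicate 2 or 3 in TKO. The corresponding levels were 8.87 and 6.96 CPM in Ctrl and 2.49 and 2.10 CPM in TKO. Both TKO libraries lay below both Ctrl libraries, and Hhip fell by 1.76 on the log2 scale (SE 0.285, adjusted p = 0.0172), which is 3.4-fold, in the class whose immune, melanocyte, basal and dermal condensate marker sums also differed as given above. Over all keratinocytes it fell by 1.82 (SE 0.274, adjusted p = 0.028), the 1 call among the 7 genes there, where 6.38% of all genes tested were called and 2.39% were called lower in TKO. The call in hair follicle-like cells was kept in 11 of 12 alternatives and was lost after thinning (log2 change -2.38, adjusted p = 0.067) and without Ctrl replicate 1 (log2 change -1.57, adjusted p = 0.0797). The call in keratinocytes held without the cluster led by Krt7 and Npffr1 (log2 change -1.69, adjusted p = 0.0419) and was lost without Ctrl replicate 1 (adjusted p = 0.15), Ctrl replicate 2 (adjusted p = 0.281) or TKO replicate 2 (adjusted p = 0.0523), after thinning (adjusted p = 0.145) and with the replicate number as a block (adjusted p = 0.067), with log2 changes from -1.91 to -1.60.

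**Figure D3:**
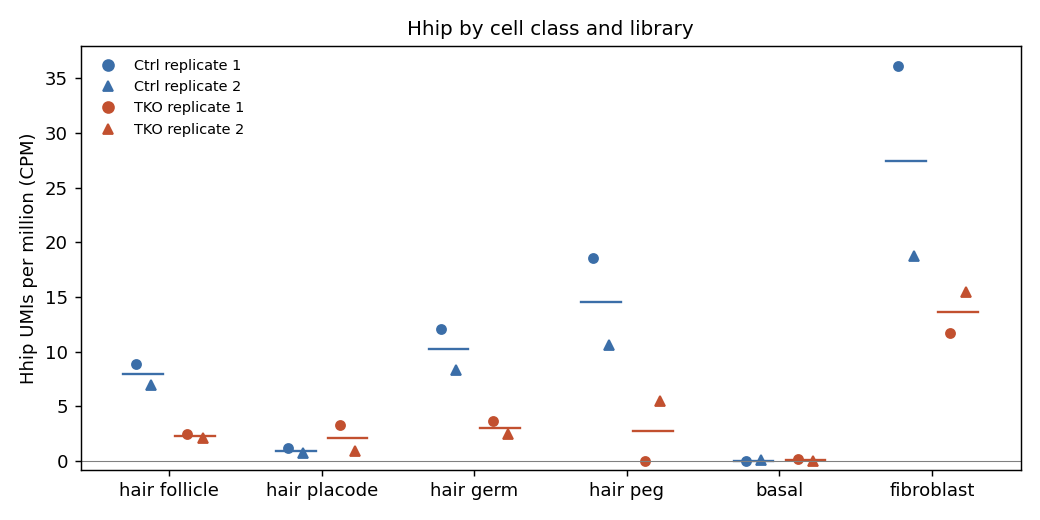
Hhip level in CPM (vertical axis) in hair follicle-like cells as a whole, in their 3 named subgroups, and in basal-like and fibroblast-like cells (horizontal axis, without the ending "-like"). Points are single libraries, circles replicate 1 and triangles replicate 2, blue for Ctrl and red for TKO, and lines are means of 2 libraries. In hair germ-like, hair peg-like and fibroblast-like cells both TKO points lie below both Ctrl points.

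In the subgroups, hair germ-like cells gave 41 and 37 Hhip UMIs for Ctrl against 6 and 6 for TKO (12.1 and 8.32 CPM against 3.62 and 2.48 CPM; log2 change -1.76, SE 0.426, adjusted p = 0.0819). Hair peg-like cells gave 60 and 39 for Ctrl against 0 and 10 for TKO (18.6 and 10.6 CPM against 0 and 5.53 CPM; adjusted p = 0.153), and with 1 library at 0 the fitted log2 change ranged from -8.26 to -1.36 when 1 library was left out. The subcluster led by Lhfp, which held most of the germ-like Hhip UMIs of Ctrl, made up 49 of 109 and 98 of 208 germ-like cells in Ctrl and 15 of 45 and 22 of 90 in TKO, so that the class sums compared different mixes of cells. Within that subcluster Hhip had 22.4 and 12.5 CPM in Ctrl and 10.1 and 1.70 CPM in TKO, the last 2 from 4 UMIs and 1 UMI, and within the subcluster led by Slc40a1 it had 3.29 and 4.66 CPM against 1.59 and 2.73 CPM. The part of the mix in the germ-like values was not tested further. The 28 peg-like cells of TKO replicate 1 gave no Hhip UMI, which allows up to 2.91 CPM. Hair placode-like cells had 4, 2, 10 and 3 UMIs. Hhip was not called in any subgroup. In germ-like and peg-like cells the TKO values rest on few UMIs, so the lack of overlap there is no support of its own.

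The peg-like cells had the highest Ctrl mean of Hhip among the named subgroups, overlapping the germ-like cells. They were 23.1% (95% exact binomial limits 19.3 and 27.3) and 25.4% (limits 22.0 and 29.0) of the hair follicle-like cells of Ctrl and 12.8% (limits 8.67 and 17.9) and 14.2% (limits 10.7 and 18.4) of those of TKO (exact two-sided permutation p = 0.333, the smallest possible). Placode-like cells made up 32.6% and 28.4% in Ctrl and 48.4% and 38.1% in TKO, and germ-like cells 24.0% and 33.2% in Ctrl and 20.5% and 26.2% in TKO. The part of these shares in the fall of Hhip over the whole class was not tested beyond the values within each subgroup above. At 5000 UMIs per cell, 2.59 ± 0.428% of Ctrl and 0.523 ± 0.0904% of TKO hair follicle-like cells held a Hhip UMI (SD, n = 2; exact permutation p = 0.333), and in immune-like cells 1 of 68 and 0 of 98 Ctrl cells and 0 of 243 and 0 of 275 TKO cells did. Without thinning the shares were 7.50 ± 0.0134% and 4.40 ± 0.879% in hair follicle-like cells and 1.98 ± 1.37% and 0.41 ± 0.58% in immune-like cells.

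Fibroblast-like cells, the dermal side of the pathway, carried all 7 fibroblast markers in every library, Col1a1, Col1a2, Col3a1, Pdgfra, Dcn, Lum and Twist2, at a summed 32836 to 45297 CPM. None of the 7 pathway genes was called in them, and of all 11628 genes tested 4 were called. Ptch1 had 301 and 148 CPM in Ctrl and 73.3 and 218 CPM in TKO (log2 change -0.66, SE 0.536, adjusted p = 0.999), and Hhip had 36.2 and 18.8 CPM in Ctrl and 11.7 and 15.5 CPM in TKO (log2 change -1.07, SE 0.375, adjusted p = 0.999). Gli1 had 24.3 and 10.7 CPM in Ctrl and 9.83 and 27.7 CPM in TKO, and Gli2 had 209 and 150 CPM in Ctrl and 116 and 169 CPM in TKO (log2 change -0.37, SE 0.266, adjusted p = 0.999). The genotypes overlapped for Ptch1, Gli1 and Gli2 and not for Hhip.

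The fibroblast-like cells came from 2 clusters that differed widely in pathway genes. The cluster led by Cntn4, Crabp1 and Twist2 held 48, 18, 45 and 41 cells, and Ptch1 there had 648 and 765 CPM in Ctrl and 257 and 765 CPM in TKO. The cluster led by Dlk1, Clec3b and Mfap5 held 58, 87, 147 and 89 cells, with 50.9 and 48.3 CPM of Ptch1 in Ctrl and 25.4 and 40.3 CPM in TKO. Gli1 had 35.4 and 38.5 CPM in Ctrl and 27.8 and 78.0 CPM in TKO in the first cluster, and 5.14 to 16.3 CPM in the second. In the first cluster TKO replicate 2 thus reached the Ctrl level of Ptch1 and TKO replicate 1 did not. The 7 markers of the dermal condensate, Sox2, Sox18, Bmp4, Alpl, Fgf10, Trps1 and Bmp3, summed to 1440 and 679 CPM in Ctrl fibroblast-like cells and to 464 and 1024 CPM in TKO, all 7 being detected in each library. The libraries stood in the same order as for Ptch1, but the sum was mostly Trps1. In the first cluster Trps1 had 2724 and 2299 CPM in Ctrl and 1231 and 2753 CPM in TKO. Bmp4 stood in another order there, with 76.5 and 260 CPM in Ctrl and 75.4 and 24.1 CPM in TKO. Immune markers summed to 18.4, 5.36, 914 and 22.7 CPM in these cells. The part of either in the Ptch1 values was not tested.

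**Figure D4:**
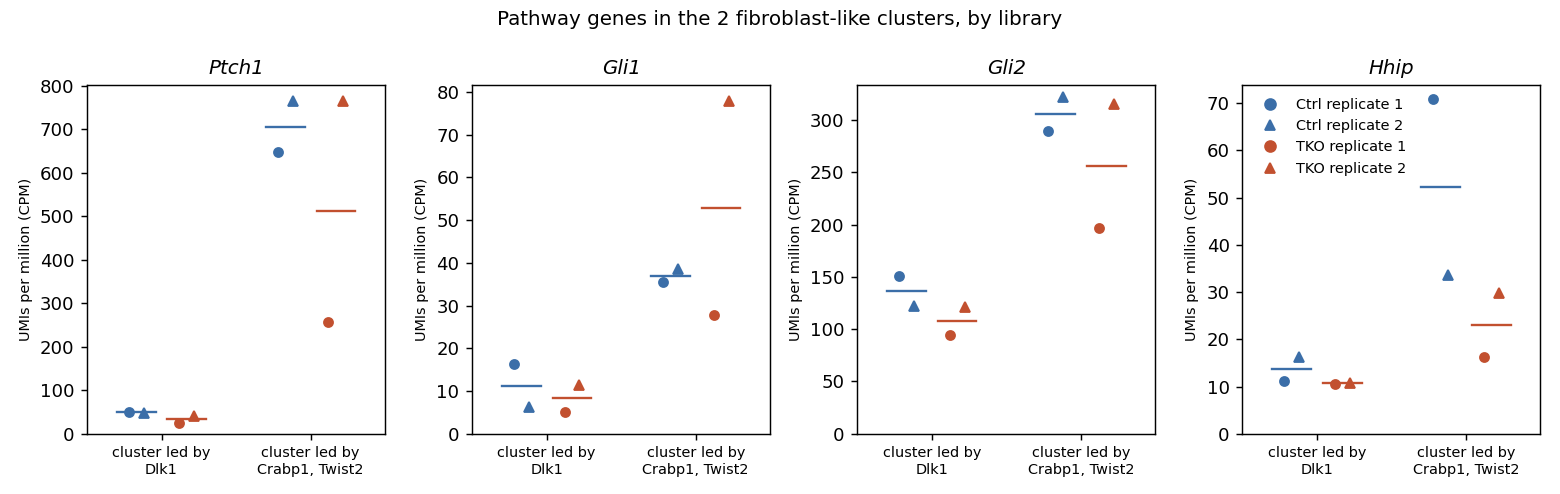
Level of Ptch1, Gli1, Gli2 and Hhip in CPM (vertical axes, starting at 0) in the 2 clusters of fibroblast-like cells (horizontal axes, named by leading genes). Points are single libraries, circles replicate 1 and triangles replicate 2, blue for Ctrl and red for TKO, and lines are means of 2 libraries. Every gene is higher in the cluster led by Crabp1 and Twist2 than in the other within each library, and Ptch1 of TKO replicate 1 lies at 257 CPM there against 648 to 765 CPM in the other libraries.

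A wider list of 35 pathway genes was read beside the 7. In hair follicle-like cells 29 were tested and 4 called, all lower in TKO, beside 3.15% of all genes called lower. In basal-like cells 29 were tested and 3 called, all lower, beside 5.16% of all genes. In keratinocytes 30 were tested, 3 called lower and Dhh higher, beside 2.39% and 3.99%. The lists were chosen with earlier results of these data known, and nothing is read from these shares. By edgeR none of the 16 listed genes of signal transfer and the cilium was called in any class, and DESeq2 called none either. At an unadjusted p under 0.05 there were 2 of the 16 in hair peg-like cells, 1 each in hair follicle-like, hair germ-like and basal-like cells, and 0 in the other 4 classes tested. Over all genes 2414 of 11862 in hair peg-like, 3483 of 15263 in hair follicle-like, 1944 of 12008 in hair germ-like and 5323 of 17469 in basal-like cells were under that value. Among the genes not called, Stk36 (log2 change -0.59, adjusted p = 0.214), Mycn (-0.48, adjusted p = 0.349) and Arl13b (-0.19, adjusted p = 0.533) had the largest changes in keratinocytes among the genes that no fit called.

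Scube2, which helps to release lipid-bearing Hedgehog ligand from the cells that make it, had 442 and 420 UMIs in Ctrl basal-like cells and 117 and 91 in TKO, or 14.2 and 13.8 CPM against 3.38 and 3.20 CPM. It fell by 2.08 on the log2 scale (SE 0.167, adjusted p = 0.00159), a call kept in all 13 alternatives and without each library in turn. Without the cluster led by Krt7 and Npffr1 it fell by 1.90 (adjusted p = 0.00361). In keratinocytes Scube2 fell by 1.83 (adjusted p = 0.0168; 0.0772 without Ctrl replicate 1, 0.24 without Ctrl replicate 2). In hair placode-like cells 31 and 17 Scube2 UMIs in Ctrl stood against 5 and 1 in TKO, and the gene passed the expression filter through the Ctrl libraries alone. Its call there (adjusted p = 0.0497) was lost without any 1 of the 4 libraries, with log2 changes from -4.54 to -2.23 (adjusted p from 0.0579 to 0.165). Fibroblast-like cells had 30.8 and 23.5 CPM in Ctrl and 34.0 and 22.7 CPM in TKO.

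The co-receptors Gas1 and Boc, which help Ptch1 to bind ligand, were also among the lowered genes. Gas1 had 192 and 208 CPM in Ctrl hair follicle-like cells and 118 and 82.3 CPM in TKO (log2 change -0.97, SE 0.161, adjusted p = 0.0188; 0.0756 without Ctrl replicate 2). In basal-like cells it had 306 and 326 CPM in Ctrl and 184 and 215 CPM in TKO (log2 change -0.66, SE 0.124, adjusted p = 0.0201; 0.0715 and 0.0969 without Ctrl replicates 1 and 2). Without the cluster led by Krt7 and Npffr1 it fell by 0.54 there (adjusted p = 0.0457). Over all keratinocytes Gas1 fell by 0.77 (adjusted p = 0.0281; 0.057 without Ctrl replicate 1, 0.264 without Ctrl replicate 2 and 0.0619 without TKO replicate 1). Boc had 67.1 and 73.4 CPM in Ctrl hair follicle-like cells and 38.7 and 48.6 CPM in TKO (log2 change -0.65, SE 0.145, adjusted p = 0.0477), and its call was lost without Ctrl replicate 1 (adjusted p = 0.0937), Ctrl replicate 2 (adjusted p = 0.222) or TKO replicate 1 (adjusted p = 0.0693).

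Among the genes listed as targets, Ccnd1 and Sox9 were called within single classes, and Ccnd2 in the difference between hair follicle-like and basal-like cells (0.52, adjusted p = 0.00211). Ccnd1, the cell cycle gene for cyclin D1, had 407 and 465 CPM in Ctrl hair follicle-like cells and 165 and 255 CPM in TKO (log2 change -1.02, SE 0.205, adjusted p = 0.0337; 0.129 without Ctrl replicate 2). In hair germ-like cells it had 755 and 773 CPM in Ctrl and 249 and 396 CPM in TKO (log2 change -1.24, SE 0.206, adjusted p = 0.0239), and in hair peg-like cells 409, 405, 361 and 474 CPM. Differentiating-like cells went the other way without passing the threshold, with 18.0 and 23.7 CPM in Ctrl and 46.4 and 32.4 CPM in TKO (log2 change 0.85, adjusted p = 0.115). Sox9, a transcription factor of the early hair follicle, fell by 1.63 in hair follicle-like cells (adjusted p = 0.00474), by 1.92 in hair germ-like cells (adjusted p = 0.0123), by 1.17 in hair peg-like cells (adjusted p = 0.0138; 0.0548 without Ctrl replicate 2), by 1.06 in basal-like cells (adjusted p = 0.0109; 0.0645 without Ctrl replicate 2, 0.0244 when the cluster led by Krt7 and Npffr1 was left out) and by 1.47 in keratinocytes (adjusted p = 0.042; 0.285 without Ctrl replicate 2, 0.0877 without TKO replicate 1; 0.0527 when the cluster led by Krt7 and Npffr1 was left out). In hair follicle-like cells its level was 168 and 236 CPM in Ctrl and 59.4 and 68.3 CPM in TKO. Both genes have many regulators besides Hedgehog signalling. Sox9 is also a marker by which the peg-like cells were named, so its values in the follicle subgroups are not independent of the naming. The shares of the subgroups differed between the genotypes as given above. Their part in the falls of Sox9 and Ccnd1 over all hair follicle-like cells was not tested.

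To see which genes shared the distribution of the pathway, log2(CPM + 1) was correlated over the sums of 9 cell classes in the 2 Ctrl libraries, 18 points that share libraries, among 14610 genes. The 5 genes most like Shh were Ascl4 (r = 0.964), Scube1 (0.949), Foxi3 (0.947), Sox21 (0.941) and Rnf32 (0.941). The 5 most like Ptch1 were Sh3rf3 (r = 0.975), Dync2i1 (0.971), Gpr161 (0.967), 9530026P05Rik (0.966) and Matr3 (0.965), and those most like Gli1 included Cbx3 (r = 0.948), Hmga2 (0.946), Nap1l1 (0.944) and Col27a1 (0.942).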

How the data were processed

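The authors deposited, for each of the 4 libraries, raw UMI counts of every gene in every cell barcode, made with Cell Ranger (version 7.1.0 in the file headers) against GRCm39. These counts were not normalized. Gene positions came from GENCODE vM39 and the promoter from RefSeq, whose table held 5 of the 7 genes and not Shh or Gli1.

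Cells with at least 2000 genes and at most 10% mitochondrial UMIs were kept and simulated-doublet scores removed 260 cells. Cells were clustered with scanpy 1.11.5 on 30 Harmony-corrected components (Leiden resolution 1, and 0.6 within the follicle), leaving out the pathway genes and genes that differed between genotypes in keratinocytes. Clusters were named by marker lists. Regression of cell cycle genes and the naming threshold within the follicle were settled after the cells, and before the pathway values, were seen. The members and gene lists were chosen with earlier results of these data known.

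UMIs were summed per class and library, since cells are not replicates, and tested with edgeR 4.0.16 (TMM, filterByExpr, quasi-likelihood) with Ctrl and TKO as the only term. The study tested single cells, which was not followed. The difference between classes was an interaction term with the library as a block. Alternatives were DESeq2 1.42.0, other size factors, no filter, a replicate block, thinning, other cell filters and clusterings, leaving out each library and, added after seeing the data, leaving out 1 cluster that held mostly TKO cells. The scripts were tested on simulated data. Named were the 7 genes, every gene of the wider list called in any fit, up to 3 uncalled genes with the largest change in keratinocytes, the 5 genes most like Shh, Ptch1 and Gli1, and the targeted genes; some of these are not reported here. The lists, 35 genes in all, were ligands, ligand release and lipid attachment, receptors and co-receptors, signal transfer and cilium, and known targets.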

Additional observations from a re-analysis of the deposited data

Results flagged for a closer look

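The genotype effect differed between hair follicle-like and basal-like cells, by edgeR's interaction test with the library as a block, for 4 genes of the pathway lists. These were 1 of the 7 genes and 3 of the 30 tested from the wider list, beside 4.73% of all 17868 genes. Ccnd2 was higher by 0.52 on the log2 scale in the hair follicle-like effect (adjusted p = 0.00211), with 1000 and 920 CPM in Ctrl and 959 and 1039 CPM in TKO there, and 1086 and 1034 CPM in Ctrl and 786 and 827 CPM in TKO in basal-like cells. Gli3 differed by 0.37 (adjusted p = 0.0463). Ccnd1 differed by -0.42 (adjusted p = 0.0207) and Sox9 by -0.52 (adjusted p = 0.0242), so that their log2 change was lower in hair follicle-like cells. Ccnd1 lost its call without Ctrl replicate 1, Ctrl replicate 2 or TKO replicate 2, Sox9 without Ctrl replicate 2, TKO replicate 1 or TKO replicate 2, and Gli3 without any 1 of the 4 libraries. Without the cluster led by Krt7 and Npffr1 the adjusted p was 0.629 for Ccnd1 (-0.14), 0.0512 for Sox9 (-0.51) and 0.0911 for Gli3 (0.33), and Ccnd2 kept its call (0.48, adjusted p = 0.0054).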

How the results depend on the processing

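Calls among the 7 genes, 1 in keratinocytes, hair follicle-like cells, basal-like cells and the difference between the last 2, and 0 in the other comparisons, moved with the processing, and the cause was not tested. DESeq2 called 2 in keratinocytes, 3 in basal-like and 1 in differentiating-like cells. Without an expression filter 2 were called in hair follicle-like, hair placode-like, hair germ-like and hair peg-like cells, 3 in basal-like and differentiating-like cells, 1 (Shh) in fibroblast-like cells, 5 in the difference from basal-like and 1 in that from fibroblast-like cells. Thinning left 0 in keratinocytes, in hair follicle-like cells and in the difference from basal-like cells. Leiden resolution 0.5 left 0 in basal-like cells, and resolution 2 gave 1 in hair peg-like cells. The difference from basal-like cells held 0 calls with RLE size factors, a minimum of 1000 genes, resolution 0.5 or 2, uncorrected components or pathway genes kept in clustering. Without the cells of the cluster led by Krt7 and Npffr1, chosen after seeing the data, 0 were called in basal-like cells and in the difference from basal-like cells, and 1 in keratinocytes. That from fibroblast-like cells held 1 (Shh) with a minimum of 1000 genes, resolution 2, uncorrected components or pathway genes kept.

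Replicate numbers did not pair the samples: deviations of same-numbered libraries correlated between -0.272 and 0.00359 over the classes. The lowest value was that of keratinocytes, and a negative value means that libraries of unlike number deviated together. What they shared was not tested. The replicate block left 0 of the 7 genes called in keratinocytes. The crossed replicate pairing, added after seeing the data, called 2 in keratinocytes, hair follicle-like, hair placode-like and hair germ-like cells, 4 in basal-like and 1 in differentiating-like cells. Leaving out 1 library gave 0 to 3 calls in keratinocytes and hair follicle-like cells, 0 to 5 in basal-like, 0 to 2 in differentiating-like, 0 to 1 in hair placode-like and hair peg-like cells, 0 to 2 in the difference from basal-like and 0 to 1 in that from fibroblast-like cells.

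Shh changed sign in hair follicle-like cells with a minimum of 1000 genes (-0.19), resolution 2 (-0.20) and pathway genes kept (-0.19), in hair placode-like cells after thinning (0.19), in hair germ-like cells with a minimum of 1000 genes (-0.45), resolution 0.5 (-0.31) and uncorrected components (-0.51), in hair peg-like cells with resolution 0.5 (0.34) and pathway genes kept (0.20), and in basal-like cells with the replicate block (-0.062) and its crossed form (-0.058) and without the cluster led by Krt7 and Npffr1 (-0.086). Without 1 library Shh ranged from -0.12 to 0.20 in hair follicle-like, -0.33 to 0.16 in hair placode-like, -0.057 to 0.35 in hair germ-like, -0.70 to 0.085 in hair peg-like and -0.67 to 0.50 in basal-like cells. Gli3 in hair follicle-like cells was -0.0080 without a filter and -0.061 with uncorrected components, and -0.059 to 0.091 without 1 library, and Arl13b in keratinocytes was -0.40 to 0.053. Without thinning the share of hair follicle-like cells with a UMI differed by 14.4 percentage points for Shh and -3.10 for Hhip.

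Over all genes, 1276 calls in keratinocytes became 599 to 3364 under the alternatives other than leaving out a library, 968 in hair follicle-like cells 525 to 2450, 325 in differentiating-like cells 138 to 2199, 2484 in basal-like cells 1299 to 3423, 4 in fibroblast-like cells 0 to 374, 377 in hair placode-like cells 93 to 1444, 391 in hair germ-like cells 138 to 1277, 460 in hair peg-like cells 193 to 1392, 846 in the difference from basal-like cells 315 to 1781 and 20 in that from fibroblast-like cells 3 to 595. Without Ctrl replicate 2, 1 gene was called in keratinocytes. Hair peg-like cells could not be fitted with doublets kept, a minimum of 1000 genes or uncorrected components, because a library held under 20 of them. There were 2 libraries a group, from 1 litter, and few UMIs of Hhip, Dhh and Scube2.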

Other observations

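In the unnamed keratinocyte cluster led by Zfpm2, Gli1 had 16.3 and 24.9 CPM in Ctrl and 30.1 and 43.1 CPM in TKO, from 33 and 63 UMIs against 18 and 26 UMIs, and no test was run on this cluster. In the germ-like subcluster led by Lhfp, Shh had 37.7 and 49.4 CPM in Ctrl and 25.3 and 186 CPM in TKO, the last value from 22 cells.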
